A study of Homo sapiens with 14 samples.

Results

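The replication-dependent histone genes encode the H1 linker histones and the H2A, H2B, H3 and H4 core histones that package newly made DNA. Members were taken by gene symbol, as the numbered genes of the H2AC, H2BC, H3C and H4C series and H1-1 to H1-5, with at least 10 counts summed over the 14 libraries. Of 54628 symbols, 65 fitted the pattern and 59 reached 10 counts, namely 5 H1, 14 H2A, 16 H2B, 11 H3 and 13 H4 genes. H2AC1, H2AC7, H2BC1, H3C14, H3C15 and H4C7 had fewer counts and were left out. In RefSeq on GRCh38.p14, 50 members lay on chromosome 6 between bases 26017032 and 27893891, and 9 on chromosome 1 between 149782689 and 149887965.

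The counts come from IMR90, an established line of human lung fibroblasts. WT cells were untreated, and siHMGB2 cells were untreated cells in which HMGB2, a chromatin protein, was knocked down by siRNA. ICM cells were made senescent, a lasting arrest of the cell cycle, with 10 µM inflachromene for up to 6 days, and siSRRM2, siBANF1 and siCTCF cells carried a knockdown of the named gene on top of the same treatment. Each group had 2 libraries, except ICM with 4. ICM 3, ICM 4 and the siCTCF libraries carry a line name of another number in the labels, with IMR90 in their titles, and are treated as a second set, which has no WT library. The labels name a pair of IMR90 isolates and do not say which library came from which, nor whether same-group libraries are separate cultures, so p-values measure the spread between these libraries.

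Libraries held 22336161 to 58257456 gene counts. Small RNA genes took 3.19% to 6.06% of them in ICM 1, ICM 2 and the libraries labelled siSRRM2 and siBANF1, and 0.00522% to 0.00835% in the other 8. These 6 and 8 libraries were kept apart, and every comparison that crosses them is marked. HMGB2 was lower in siHMGB2 (3.18 and 3.52 CPM, gene counts scaled to a common library total) than in WT (27.7 and 28.0), and CTCF lower in siCTCF (71.5 and 23.0) than in ICM 3-4 (94.9 and 91.9). SRRM2 was lower in the libraries labelled siSRRM2 (76.0 and 76.4 CPM) than in ICM 1-2 (238 and 112), and lower still in those labelled siBANF1 (58.98 and 17.01). BANF1 was not lower in the libraries labelled siBANF1 (16.96 and 36.7) than in ICM 1-2 (13.5 and 32.7), so a direction drawn from those 2 libraries rests on a label that the targeted gene does not bear out. All 8 fibroblast markers had counts in every library. Of 8 markers of other cell types, CD68 stood at 39.1 to 104 CPM and the other 7 did not exceed 0.680 CPM in any library.

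Replication-dependent histone genes have no introns in their coding part, lie in clusters, and are copied mainly in S phase, when new chromatin is assembled. NPAT, acting in nuclear bodies beside the clusters, drives their transcription. Their mRNAs end not in a poly(A) tail but in a conserved stem-loop, which is bound by SLBP, cleaved with the help of the U7 small RNA, and used for rapid decay of the mRNA when DNA synthesis stops.

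In GENCODE v29 transcripts the stem-loop was found in 26 members, all among the 29 whose annotated model reaches at least 40 bases past the stop codon. It was searched as a 16-base stem and loop within 150 bases after the stop codon. Of 19517 other coding genes, 8 (0.041%) held it, 7 of them histone genes by their older symbols. The sequences of members that recur below are shown for their shared 3′ end, 5′ to 3′ in DNA letters with the 16-base stem-loop in capitals.
H2AC6: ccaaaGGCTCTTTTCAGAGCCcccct
H2BC21: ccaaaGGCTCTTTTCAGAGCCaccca
H2BC4: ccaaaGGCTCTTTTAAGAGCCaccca
H3C6: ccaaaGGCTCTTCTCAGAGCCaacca
H4C8: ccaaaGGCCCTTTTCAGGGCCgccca
H4C2: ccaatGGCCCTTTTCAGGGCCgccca
H4C14: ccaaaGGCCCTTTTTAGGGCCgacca

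These windows lie on GRCh38 at chr6:26124664-26124689 for H2AC6 (plus strand), chr1:149886183-149886208 for H2BC21 (minus), chr6:26123467-26123492 for H2BC4 (minus), chr6:26225591-26225616 for H3C6 (plus), chr6:26285126-26285151 for H4C8 (minus), chr6:26026896-26026921 for H4C2 (minus) and chr1:149833027-149833052 for H4C14 (plus). All 7 H4 members with a match carried a stem-loop that begins GGCCCTTTT, in the form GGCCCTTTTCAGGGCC in 4 and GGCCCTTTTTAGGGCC in 3. The form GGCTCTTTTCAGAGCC was shared by 5 H2A, 7 H2B and 1 H3 member. H4C8, which was high in the ICM-treated libraries of both sets, and H4C2, which was near 0 in all 8 libraries with little small RNA, had the same 16 bases.

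Members were few in counts in untreated cells. Their summed level was 112 and 93.5 CPM in WT 1 and WT 2, and 8 members exceeded 1 CPM in each. H2BC12, an H2B gene, alone held 40.3% of the member counts in both WT libraries, and the 5 leading members (H2BC12, H2BC21, H2AC6, H1-2 and H2BC5) held 85.9% and 85.7%. Of the 59 members, 12 had no count in WT 1 and 22 none in WT 2, where a count of 0 allows up to 0.0894 and 0.0823 CPM. The H2B class made up 72.0% of member counts in each WT library and H4 2.9% and 3.1%.

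**Figure D1:**
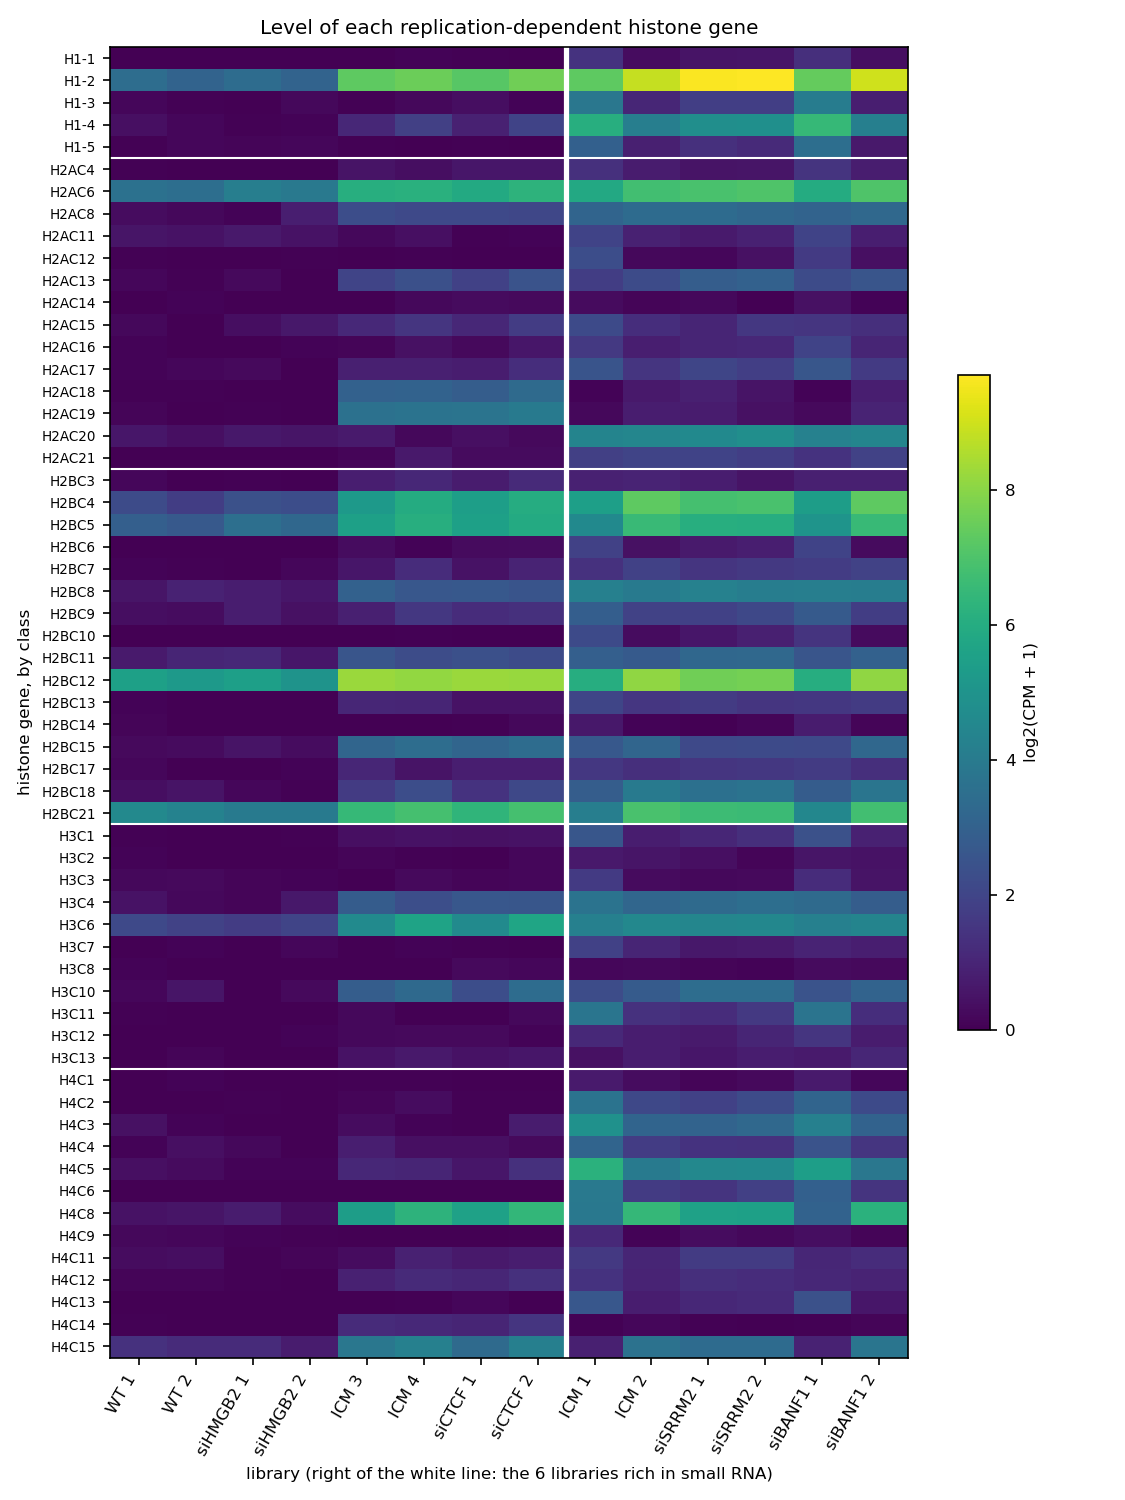
Level of each of the 59 histone genes (rows, by class) in each library (columns), as log2(CPM + 1) in colour. The thick vertical white line divides the 8 libraries with little small RNA from the 6 that are rich in it. H1-2, H2BC12, H2AC6, H2BC21, H2BC4, H2BC5 and H4C8 are brighter in ICM 3-4 and siCTCF than in WT and siHMGB2, while rows such as H1-3, H4C2 and H4C6 are dark in all 8 libraries.

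ICM 3-4 and WT, both among the 8 libraries with little small RNA, were compared for the change of these genes with induced senescence. Histone genes of all 5 classes were higher in ICM 3-4. H1-2, a linker histone gene, stood at 10.2 and 7.63 CPM in WT 1 and 2 and at 157 and 185 CPM in ICM 3 and 4. H2BC12 had 45.0 and 37.6 CPM in the WT libraries against 305 and 281 CPM in ICM 3-4, and H2AC6, an H2A gene, at 11.3 and 10.45 against 66.8 and 70.2 CPM. H3C6, an H3 gene, rose from 3.46 and 2.80 CPM to 24.0 and 48.9 CPM, and H4C8, an H4 gene, from 0.387 and 0.466 CPM to 41.5 and 77.1 CPM. In each of these genes both ICM libraries lay above both WT libraries. Of all 59 members, 39 did so, beside 35.0% of 26567 genes with a count, and 2 lay below, beside 28.0%. H3C6 and H4C8 differed more between ICM 3 and 4 than H1-2, H2BC12 and H2AC6 did.

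In edgeR's quasi-likelihood test over the 8 libraries, with Benjamini-Hochberg adjustment over all 16719 genes tested, 33 members had an adjusted p under 0.05 and were higher, beside 28.6% of all genes tested that were called higher. No member was called lower, beside 28.0% of all genes. The log2 fold changes of the 33 ran from 1.74 for H4C5 to 7.76 for H2AC19. H1-2 changed by 4.06 (SE 0.23, adjusted p 1.94e-05), H2BC12 by 2.63 (SE 0.20), H2AC6 by 2.46 (SE 0.17), H3C6 by 3.33 (SE 0.43) and H4C8 by 6.89 (SE 0.53). Of the 59 members, 38 passed the filter on low counts, 5 of these (H2AC11, H2AC16, H2AC20, H4C3 and H4C11) were not called, and the 21 not tested did not exceed 0.753 CPM in any of the 8 libraries. A gene can pass that filter through the group where it is high. With every gene of at least 1 count tested, 34 members were called higher and none lower, beside 16.2% and 18.2% of all genes. In bulk RNA, a change in the share of cells that hold an mRNA and in its amount per cell cannot be told apart, and in this comparison the set of the libraries and the treatment cannot be told apart either.

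**Figure D2:**
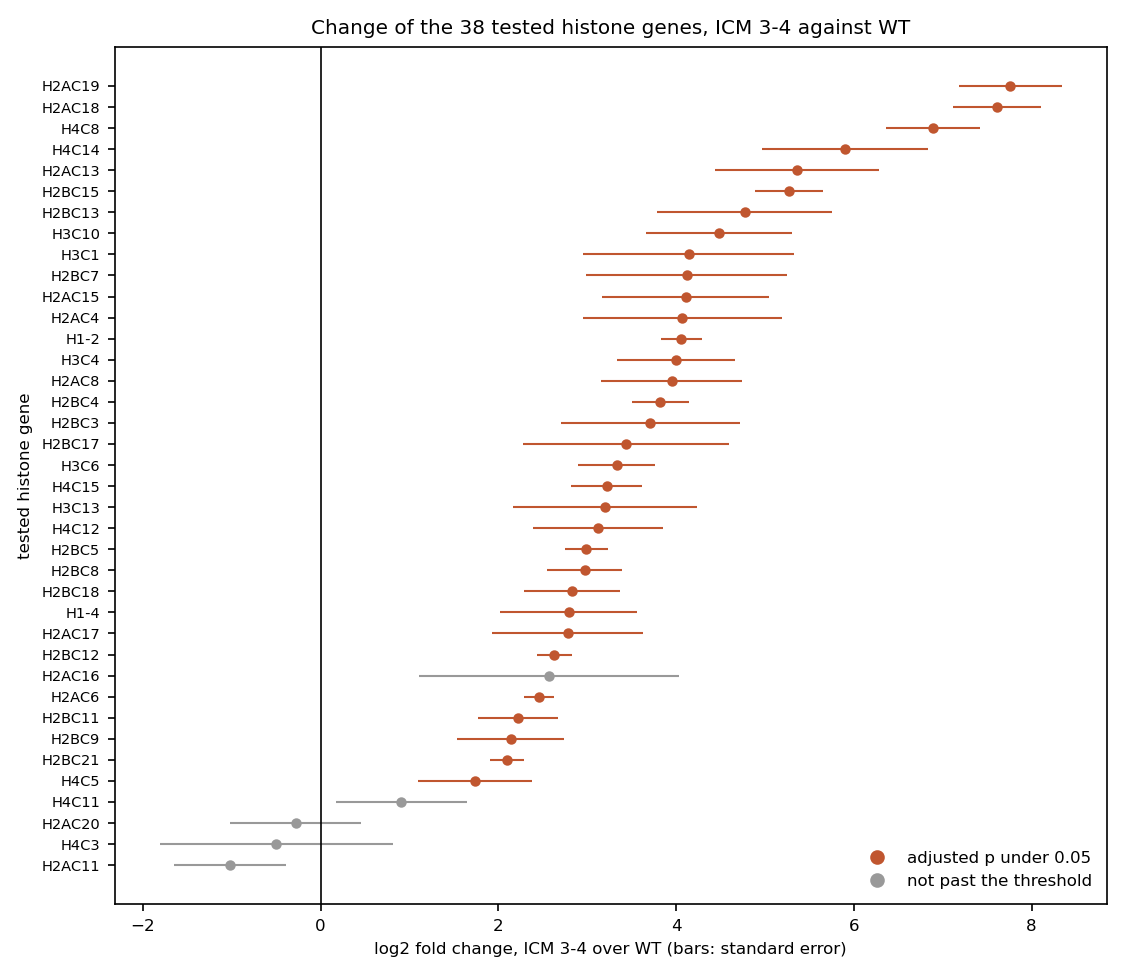
Log2 fold change of ICM 3-4 over WT for the 38 histone genes that were tested, with bars of 1 standard error. The 33 genes past the threshold lie between 1.74 and 7.76, and the 5 others between -1.02 for H2AC11 and 2.57 for H2AC16, whose bar is the widest.

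The largest changes were in genes with almost no counts in WT. H2AC19 had 3 counts over both WT libraries and 577 over ICM 3-4 (11.4 and 11.98 CPM), a ratio of 273 with a 95% Clopper-Pearson interval from 93.0 to 1330. H2AC18, whose sequence nearly repeats that of H2AC19, had 2 counts against 358 (7.11 and 7.41 CPM), a ratio of 254 (69.9 to 2110). H4C14 had 1 count against 61 (1.30 and 1.18 CPM), a ratio of 86.7 (15.0 to 3480). These intervals cover counting error only. The fitted log2 change of H2AC19 was 11.35 without WT 1 and 6.76 without WT 2, and that of H4C14 was 8.12 and 4.99, while the call of each held. No 50-base window of H2AC18 or H4C14 and 2.9% of those of H2AC19 were found in no other GENCODE gene, so how reads were divided among the copies is uncertain. H4C14 also overlaps an H3 gene on the other strand. Such windows made up less than 50% of the gene in 13 members, H2BC12 (25.9%) among them, and 100% in H1-2 and H4C8.

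The classes differed in how many members could be seen. All 13 tested H2B genes and all 5 tested H3 genes were called higher, with 8 of 11 H2A, 5 of 7 H4 and both tested H1 genes (H1-2 and H1-4). These stand beside 28.6% of all genes tested. The filter left 3 H1, 3 H2A, 3 H2B, 6 H3 and 6 H4 members untested. Since a gene can pass it through the group where it is high, these counts do not rank the classes. H1-4 rose from 0.328 and 0.137 CPM to 1.13 and 2.60 CPM (log2 fold change 2.79, SE 0.77). H1-1, H1-3 and H1-5 stayed at or below 0.158 CPM in ICM 3 and 4. The H2B share of member counts was 72.0% in each WT library and 59% and 55.0% in ICM 3 and 4, and that of H1 9.5% and 8.5% in WT and 18.5% and 18.7% in ICM 3-4.

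Members also differed in the length of their RefSeq gene. In 8 members (H2BC4, H2BC5, H2BC12, H2BC18, H2BC21, H3C4, H3C6 and H4C15) it spans 2224 to 29682 bases, and in the other 51 it spans 387 to 797 bases. The 8 longer genes held 75.1% and 74.0% of member counts in WT, 61.2% and 59.5% in ICM 3-4, and 23.8% to 46.6% in the 6 libraries rich in small RNA. All 8 were called higher in ICM 3-4, as were 25 of the 30 shorter genes tested, beside 28.6% of all genes tested. The other 21 shorter genes did not pass the filter on low counts. The shorter genes summed to 27.8 and 24.3 CPM in WT and 331 and 408 CPM in ICM 3-4. Both groups of genes were therefore higher in ICM 3-4 in each library, the longer ones at 523 and 599 CPM against 83.9 and 69.2.

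**Figure D3:**
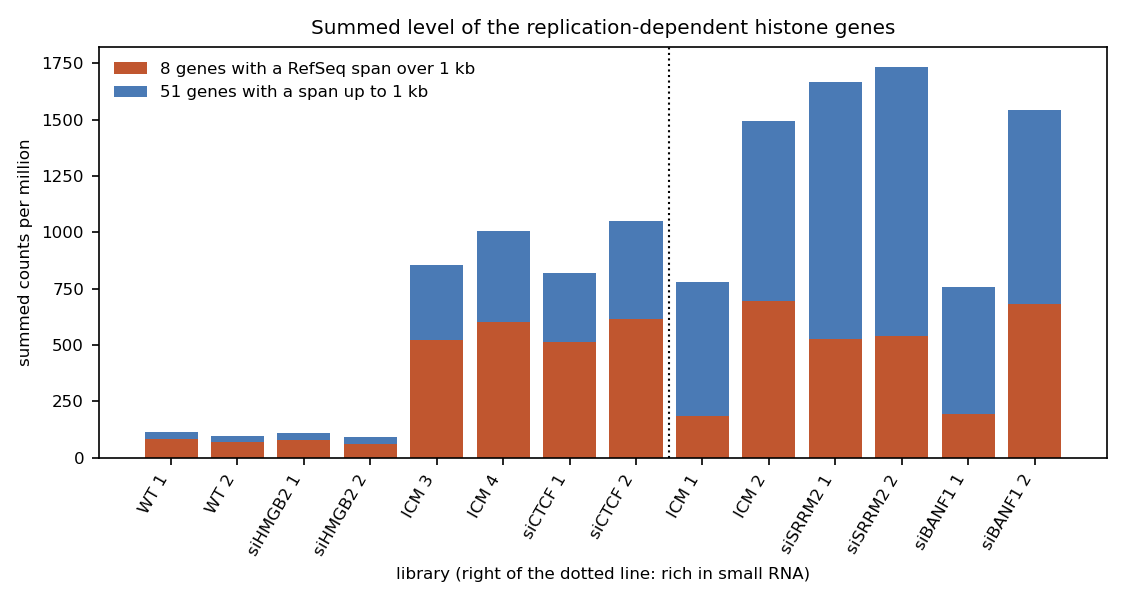
Summed CPM of the 59 histone genes in each library, divided into the 8 genes with a RefSeq span over 1 kb and the 51 shorter ones. WT and siHMGB2 stay at or below 112 CPM in all, the ICM-treated libraries lie between 758 and 1736 CPM, and the longer genes hold the smallest share in ICM 1 and siBANF1 1.

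Most of the listed genes that serve DNA replication went the other way. Of 13 S-phase genes, 8 were called lower in ICM 3-4 than in WT and 1, CDC6, higher. This stands beside 28.0% of all genes called lower and 28.6% called higher. The median log2 fold change of the S-phase genes was -1.80, beside 0.02 over all genes tested and 3.27 over the tested members. RRM2, which makes DNA precursors, changed by -5.96 (SE 0.46) and the replicative helicase subunit MCM6 by -3.02 (SE 0.23). PCNA, the sliding clamp of DNA polymerase, did not pass the test (0.21, SE 0.16), nor did MCM3 (-0.05), MCM4 (-0.21) or TYMS (0.14). Other features moved with the comparison as well. Of 8 fibroblast markers, 7 were called lower, with a summed level of 17740 and 24120 CPM in WT and 4196 and 2034 CPM in ICM 3-4. Of 5 tested structural RNAs without a poly(A) tail, 2 were called higher and none lower, with a median log2 fold change of 1.91. They were RPPH1, at 0.298 and 0.357 CPM in WT and 1.13 and 1.73 CPM in ICM 3-4 (1.91, SE 0.55), and SNORD3A, at 0 and 0.0549 CPM against 0.167 and 0.434 CPM. The summed level of the markers of other cell types was 39.6 and 39.7 CPM in WT and 95 and 104 CPM in ICM 3-4, almost all of it CD68, and 6 of the 8 markers were at 0 in ICM 3 and ICM 4. The part of these in the histone values was not tested.

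**Figure D4:**
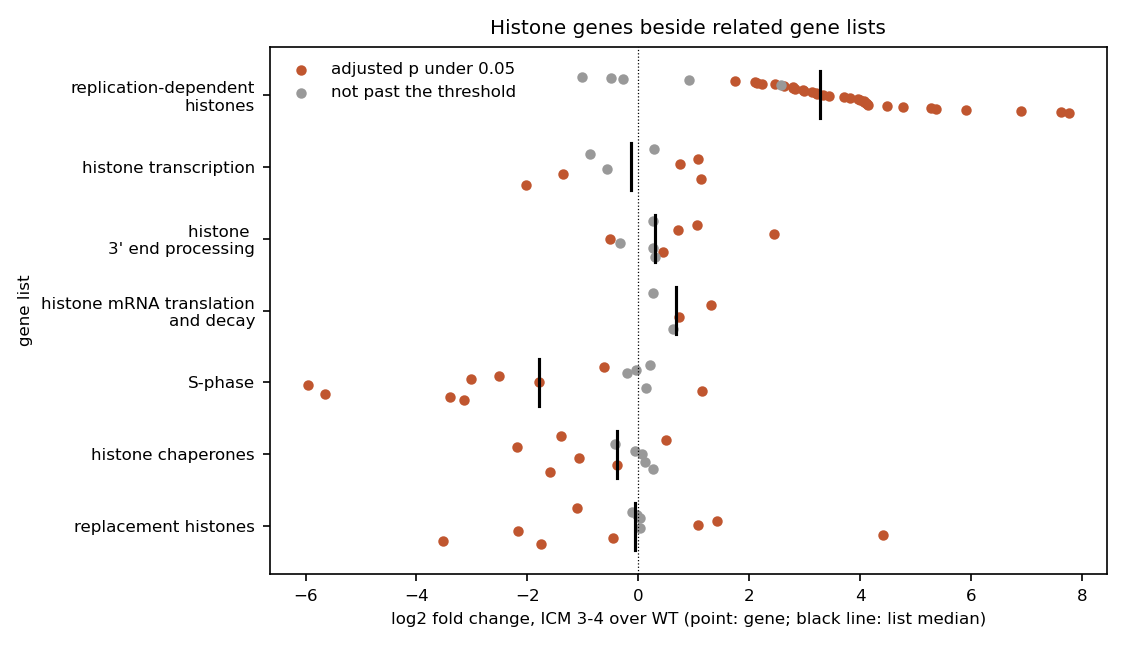
Log2 fold change of ICM 3-4 over WT for each tested gene of the histone set and of 6 related lists (orange: adjusted p under 0.05, grey: not past it, black line: list median). The histone genes have a median of 3.27 and the S-phase genes one of -1.80.

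The genes that act on histone genes and their mRNAs moved in both directions. Their counts stand beside 28.6% of all genes tested that were called higher and 28.0% called lower. NPAT had 21.3 and 25.2 CPM in the WT libraries against 20.8 and 45.1 CPM in ICM 3-4, and did not pass the test (log2 fold change 0.29, SE 0.32). Of the 8 genes of histone transcription, 3 were called higher, namely HINFP, an activator of H4 genes, POU2F1, which binds H2B promoters, and CCNE1. Of the kinase CDK2 and its cyclin E partners, which activate NPAT, CDK2 (-1.35, SE 0.15) and CCNE2 (-2.03, SE 0.43) were called lower and CCNE1 (1.12, SE 0.28) higher. SLBP did not pass the test either, at 61.4 and 58.8 CPM in WT and 82.3 and 83.5 CPM in ICM 3-4. Its log2 fold change was 0.27 (SE 0.14, adjusted p 0.133 in the edgeR quasi-likelihood fit). Both ICM libraries lay above both WT libraries, as they did for 35.0% of all genes with a count. Of the 9 genes of 3′ end processing, 4 were called higher and 1, CPSF2, lower. ZNF473, which takes part in histone pre-mRNA cleavage, had the largest change of these (2.45, SE 0.17), from 7.57 and 8.40 CPM to 45.5 and 54.6 CPM. UPF1, an RNA helicase that acts in histone mRNA decay, rose from 130.1 and 128 CPM to 368 and 363 CPM (log2 fold change 1.30, SE 0.14).

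Of 11 tested histone chaperones 1 was called higher and 5 lower, beside 28.6% and 28.0% of all genes. Their median log2 fold change was -0.38. NASP, which stores H3 and H4, was lower, at 108.9 and 98.1 CPM in the WT libraries against 43.0 and 47.0 CPM in ICM 3-4. Of 12 replacement and other histone genes outside the replication-dependent clusters, 3 were called higher (H2AX, H2AJ and H4-16) and 5 lower. These stand beside the same shares of all genes, and the median was -0.07. H2AX and H4-16 are among the other genes in which the stem-loop was found, under their older symbols.

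Knockdown of HMGB2 in untreated cells addresses the same genes without the drug. The summed level of members was 110.5 and 89.2 CPM in siHMGB2 1 and 2, against 112 and 93.5 in WT, and the ranges overlap. H1-2 was at 9.88 and 7.55 CPM in siHMGB2, H2BC12 at 43.6 and 30.6, and H4C8 at 0.673 and 0.243, each overlapping WT. No member was called by edgeR's quasi-likelihood test, beside 0.0897% of all genes called higher and 0.203% called lower (0.293% in all), and none by DESeq2, beside 1.7% called higher and 1.56% lower. At an unadjusted p under 0.05 there were 4 of 38 members, beside 12.3% of all genes. H2AC6 stood at 16.9 and 14.02 CPM in siHMGB2, above both WT libraries (log2 fold change 0.57, SE 0.16), and H2BC5 at 10.6 and 8.50 CPM against 6.67 and 5.57 in WT (0.69, SE 0.23). H2AC15 was also above both WT libraries (2.48, SE 0.99), and H2BC18 below both, at 0.135 and 0.0486 CPM against 0.298 and 0.439 (-1.94, SE 0.69). Of all 59, 6 members were higher in both siHMGB2 libraries than in both WT libraries, beside 16.6% of genes with a count, and 11 lower, beside 24.7%. H2AC6 and H2BC5 were called higher when only WT and siHMGB2 entered the edgeR fit, beside 6.14% of all genes called higher and 4.74% lower. In the fit of every gene with a count, 1 of 58 members, H2AC15, was called, beside 854 of 28820 genes. H2AC15 had 5 and 0 counts in WT 1 and 2 and 10 and 22 in siHMGB2 1 and 2.

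Knockdown of CTCF in ICM-treated cells was set against ICM 3-4. Members summed to 821 and 1050 CPM in siCTCF 1 and 2, and to 855 and 1007 in ICM 3 and 4. H2BC12 was at 304 and 298 CPM in siCTCF, H1-2 at 145 and 193 CPM, and H4C8 at 46.6 and 85.7 CPM, and all 3 overlapped ICM 3-4. No member was called, beside 0.0% of the 16719 genes, and DESeq2 called none. No member had an unadjusted p under 0.05 in edgeR's quasi-likelihood test, beside 0.807% of all genes. The log2 fold changes were 0.05 for H2BC12 (SE 0.19), 0.00 for H1-2 (SE 0.20) and 0.17 for H4C8 (SE 0.37). Of the 59 members, 37 had a higher CPM in ICM 4 than in ICM 3, beside 54.6% of genes of at least 1 CPM, and 36 in siCTCF 2 than in siCTCF 1, beside 57.6%. That limit is on the mean over the 14 libraries and was not put on the members, many of which were near 0 here.

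In the 6 libraries rich in small RNA, more members were seen and H1-2 led in place of H2BC12. Each of ICM 1, ICM 2, siBANF1 1 and siBANF1 2 had counts for all 59 members, and 34 to 48 members exceeded 1 CPM per library. Summed levels were 781 and 1495 CPM in ICM 1 and 2, 1666 and 1736 in the libraries labelled siSRRM2, and 758 and 1545 in those labelled siBANF1. H1-2 held 20.3% to 48.3% of the member counts. H1 genes together held 31.7% to 50.1% of them, against 8.5% to 9.5% in WT. Per kilobase of coding sequence the H1 shares are smaller, since H1 genes are the longest of the classes. They were 5.9% and 5.2% in WT 1 and 2 and 20.6% and 21.3% in ICM 1 and 2. In siSRRM2 they were 36.6% and 36.9%, and in siBANF1 26.0% and 23.4%.

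The 2 libraries of ICM 1-2 differed in the levels of many histone genes. H1-2 was at 159 CPM in ICM 1 and 457 in ICM 2, H2BC12 at 66.0 and 271, H2BC21 at 16.7 and 119.0, and H4C8 at 13.7 and 86.7. In the other direction, H1-4 was at 67.2 CPM in ICM 1 and 16.9 in ICM 2, H4C5 at 72.5 and 14.6, H1-3 at 13.6 and 1.05, H4C3 at 29.2 and 7.83, and H3C11 at 12.8 and 1.58. Of the 59 members, 36 were higher in ICM 1, beside 41.7% of genes of at least 1 CPM. They were 1 of the 8 longer genes and 35 of the 51 shorter ones. The limit of 1 CPM was not put on the members.

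The libraries labelled siBANF1 were divided in the same way. H1-2 stood at 170.5 CPM in siBANF1 1 and 513 in siBANF1 2, H4C8 at 7.25 and 72.8, H1-4 at 90.9 and 17.2, and H1-3 at 16 and 0.738. Of the 59, 34 were higher in siBANF1 1, beside 41.6% of genes of at least 1 CPM. In all, 33 members were higher in both ICM 1 and siBANF1 1 than in their partners, 22 were lower in both, and 4 differed. The siSRRM2 libraries were close to each other, with H1-2 at 798.5 and 837 CPM, H4C8 at 46.6 and 44.6, and H1-4 at 26.6 and 27.5. The small RNA share was 6.06% in ICM 1 and 3.19% in ICM 2, and 4.50% and 3.94% in siBANF1 1 and 2. The fibroblast markers summed to 11080 and 3937 CPM in ICM 1 and 2 and to 7544 and 4206 CPM in siBANF1 1 and 2, and the S-phase genes to 131 and 245 and to 139 and 254 CPM. The part of these in the histone values was not tested.

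**Figure D5:**
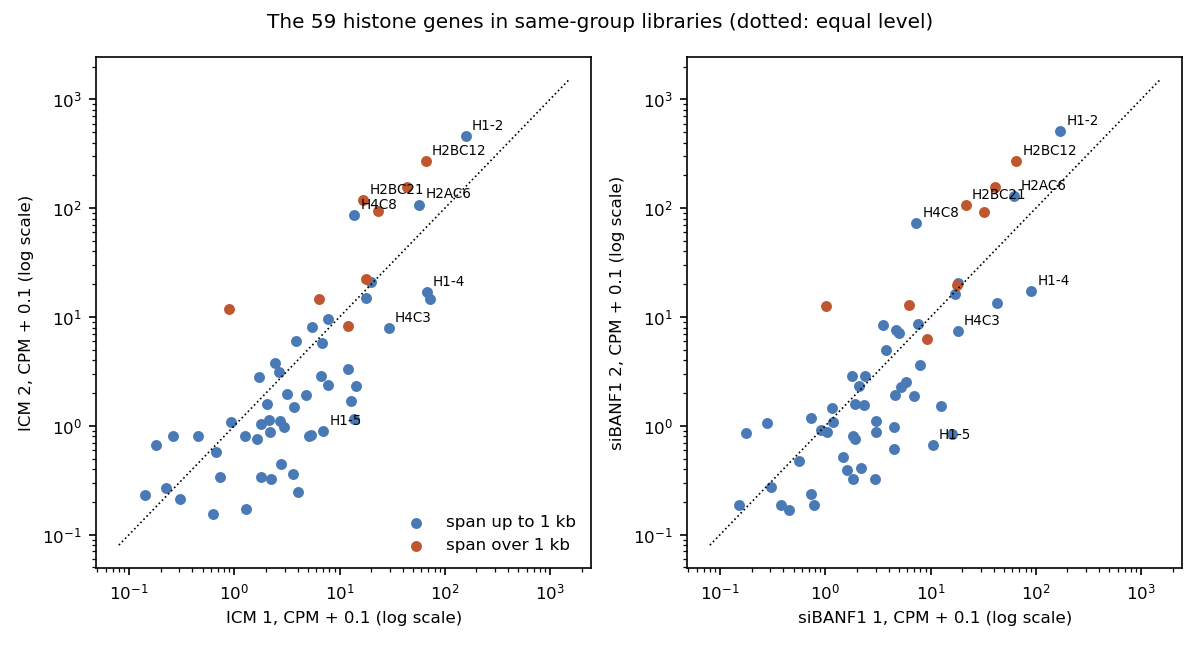
CPM of the 59 histone genes in ICM 1 against ICM 2 (left) and in siBANF1 1 against siBANF1 2 (right), with 0.1 added and both axes on a log scale. Points above the dotted line are higher in the library numbered 2, such as H1-2 and H4C8, and points below it in the library numbered 1, such as H1-4 and H1-5.

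With ICM 1 and 2 this far apart, the comparisons of the knockdowns with them had wide errors. For siSRRM2 against ICM 1-2, no member was called by edgeR's quasi-likelihood test, beside 0.0% of 17890 genes, and none by DESeq2, which called 123 genes. At an unadjusted p under 0.05 in the edgeR fit there were 3 of 56 members tested, beside 5.76% of all genes. H1-2 lay above both ICM libraries in both siSRRM2 libraries (log2 fold change 1.45, SE 0.67, adjusted p 0.854 in the same edgeR fit). The 3 members were H2AC13 (1.15, SE 0.37), H3C10 (1.10, SE 0.38) and H3C7 (-1.66, SE 0.65). Of all 59, 7 were higher in both siSRRM2 libraries than in both ICM libraries, beside 17.3% of genes with a count, and 10 lower, beside 17.2%.

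For siBANF1 against ICM 1-2, no member was called by edgeR's quasi-likelihood test or by DESeq2, beside 0.0% of genes, and none had an unadjusted p under 0.05, beside 0.883% of all genes. H1-2 changed by 0.18 (SE 0.66), H2BC12 by 0.03 (SE 0.83) and H4C8 by -0.31 (SE 1.16) on the log2 scale. These errors come from a fit that does not pair libraries by number. Side by side, H2BC12 had 65.5 and 272 CPM in siBANF1 1 and 2 against 66.0 and 271 in ICM 1 and 2. The mean CPM of 12 of the 13 H4 members was lower in siBANF1, beside 35 of all 59 members. No test was made of that count, and its share over all genes is not given here. In siBANF1 1 against ICM 1, H4C14 and H4C15 were higher and the other H4 members lower. In siBANF1 2 against ICM 2, H4C2, H4C9, H4C11, H4C12 and H4C15 were higher and the others lower. H4C5 was at 42.3 and 13.35 CPM against 72.5 and 14.6. The median log2 fold change was -0.37 for the tested H4 members, -0.05 for all tested members and 0.03 for all genes tested.

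ICM 1-2 against WT compares libraries that also differ in small RNA content, so treatment and composition cannot be told apart. In the edgeR quasi-likelihood fit to all 14 libraries, 44 of 57 members tested were called higher, beside 6.63% of all genes, and none lower, beside 6.86%. H4C6 had no count in WT or in any other of the 8 libraries and stood at 14.3 and 2.23 CPM in ICM 1 and 2, at least 185-fold higher than the floor of 3 counts over both WT libraries. H4C2 was at least 171-fold higher (11.9 and 3.26 CPM), H4C13 at least 67.0-fold (5.27 and 0.718 CPM) and H2AC21 at least 65.4-fold (2.58 and 3.00 CPM). With ICM 2 alone these bounds were 52.0 for H4C6, 76.1 for H4C2, 16.8 for H4C13 and 70.1 for H2AC21. The call of H4C6 was lost without WT 1 or WT 2, and that of H4C13 without WT 1, WT 2 or ICM 1. H1-2 changed by 4.94 on the log2 scale (SE 0.57) and H2AC6 by 2.77 (SE 0.34), while H2BC12 did not pass the test (1.85, SE 0.62). The same fit called 7 of 8 tested structural RNAs without a poly(A) tail higher, such as the transcription regulator RN7SK, at 23760 and 12890 CPM against 2.24 and 1.98 in WT.

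The count of members called depended on the libraries in the fit. With only ICM 1-2 and WT in the edgeR fit no gene was called, while 47 of 50 members had an unadjusted p under 0.05, beside 22.0% of all genes, and DESeq2 on the 14 libraries called 48 members higher, beside 11.7% of all genes, and none lower, beside 9.29%. With every gene of at least 1 count tested 52 members were called higher and none lower, beside 5.86% and 5.65% of all genes. Without WT 1 the count was 21, beside 2.7% of all genes, and without WT 2 it was 15, beside 2.49%. Without ICM 1 it was 41, beside 17.2%, and without ICM 2 43, beside 7.85%. Of the pathway genes, CCNE2 (-2.42, SE 0.50), the cleavage scaffold SYMPK (-1.11, SE 0.31) and the U7 particle protein LSM10 (-1.21, SE 0.30) were called lower and the other U7 protein LSM11 (1.19, SE 0.35) and ZNF473 (1.41, SE 0.41) higher. NPAT (1.01, SE 0.32) and SLBP (-0.21, SE 0.35) did not pass the test. Of the S-phase genes, 8 of 13 were called lower and none higher.

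ICM 1-2 and ICM 3-4 carry the same treatment and differ in set and small RNA content, which cannot be told apart. In the same fit 17 of 57 members were called higher in ICM 1-2, beside 11.0% of all genes, and 3 lower, beside 8.53% (20 in all, beside 19.5%). The 17 included 3 H1 and 7 H4 genes and 1 of the 8 longer genes. H4C6, without a count in ICM 3-4, was at least 130-fold higher, and H4C9 at least 9.88-fold, with 62 counts against 0. H1-5 had 378 counts against 1, a ratio of 181 (95% interval 32.2 to 7160), and H4C13 296 against 1, a ratio of 141 (25.2 to 5610). Both intervals cover counting error only, and ICM 1 alone held 335 of the H1-5 counts and 257 of the H4C13 counts. With ICM 2 alone the bounds were 36.6 for H4C6 and 1.21 for H4C9. The call of H4C6 was lost without ICM 3 or ICM 4, and those of H4C9, H1-5 and H4C13 without ICM 1, ICM 3 or ICM 4. The 3 lower genes were H2AC18 (0.0820 and 0.571 CPM in ICM 1-2, log2 fold change -4.38, SE 0.96), H2AC19 (0.164 and 0.700 CPM, -4.67, SE 0.86) and H4C14 (0.0410 and 0.129 CPM, -3.72, SE 0.93), all on chromosome 1 and all with near-identical copies. H1-2 (0.92, SE 0.48), H2AC6 (0.35, SE 0.32), H2BC12 (-0.74, SE 0.60), H3C6 (-0.74, SE 0.37) and H4C8 (-0.17, SE 0.89) did not pass the test.

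The 20 calls of this comparison depend on single libraries. Without ICM 1 there were 9, beside 7.11% of all genes, and without ICM 2 there were 32, beside 28.9%. Without ICM 3 there were 5, beside 5.3%, without ICM 4 there were 7, beside 7.49%, and with only the 4 libraries in the fit 2 (H2AC20 and H4C3, both higher), beside 0.506% of all genes called higher and 0.333% lower. LSM10 (-2.22, SE 0.31), UPF1 (-1.77, SE 0.26) and SYMPK (-1.33, SE 0.31) were called lower in ICM 1-2 and CPSF2 (1.05, SE 0.25) higher.

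The upstream sequences of 3 of the leading members are shown for the elements that differ between classes. They are the 250 bases before the start of H2BC12, H1-2 and H4C8 in RefSeq (GRCh38.p14, all on the minus strand, printed 5′ to 3′ along the gene), at chr6:27146859-27147108, chr6:26056471-26056720 and chr6:26285535-26285784. Capitals mark matches, on either strand, to TATAAA (the TATA box), CCAAT (a box bound by NF-Y), ATTTGCAT (the octamer bound by POU2F1), AAACACA (an H1 element) and GGTCCG (a core of the H4 element bound by HINFP).
H2BC12: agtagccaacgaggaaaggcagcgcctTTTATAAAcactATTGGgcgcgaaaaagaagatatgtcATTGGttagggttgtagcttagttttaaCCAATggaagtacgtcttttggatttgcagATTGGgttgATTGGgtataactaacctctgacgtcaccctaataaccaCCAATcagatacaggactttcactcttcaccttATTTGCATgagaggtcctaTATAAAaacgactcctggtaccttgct
H1-2: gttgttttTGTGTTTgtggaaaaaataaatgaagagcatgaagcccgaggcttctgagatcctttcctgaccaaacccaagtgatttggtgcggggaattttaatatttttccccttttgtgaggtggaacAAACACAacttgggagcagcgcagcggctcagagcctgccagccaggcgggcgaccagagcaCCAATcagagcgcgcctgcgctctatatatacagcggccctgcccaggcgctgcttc
H4C8: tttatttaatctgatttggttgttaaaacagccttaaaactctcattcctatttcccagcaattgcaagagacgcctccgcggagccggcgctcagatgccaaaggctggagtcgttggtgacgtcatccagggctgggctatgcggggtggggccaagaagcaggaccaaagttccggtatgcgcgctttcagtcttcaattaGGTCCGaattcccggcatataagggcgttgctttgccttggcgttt

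Of the 59 members, 54 had such a window in the table. AAACACA was in all 5 H1 windows and in none of the 49 others, beside 5.95% of 27251 other genes. GGTCCG was in all 11 H4 windows, beside 11.3% of other genes, and in 3 of the others. ATTTGCAT was in 13 of 16 H2B and 9 of 13 H2A windows, beside 1.95%. CCAAT was in every H1, H2A, H2B and H3 window and in 3 of 11 H4 windows, beside 36.9%, and TATAAA in 37 of 54, beside 12.9%. A match is a description of the letters and not a binding site. H1-2 and H1-3, which differed in level in every library, both held AAACACA and CCAAT.

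The genes most like the summed member level across libraries, by Pearson's r of log2(CPM + 1) among genes of at least 10 CPM, were ALKBH1 (0.9994), TFIP11, FTH1P8, TXNL4B and MBD1 over the 8 libraries. These 8 points fall into 4 low and 4 high libraries. Over the 6 libraries they were PTPA (0.9998), PSMB1, TRIAP1, CDKN1A and GSS, whose points are low in ICM 1 and siBANF1 1. CDKN1A, an inhibitor of cyclin-dependent kinases, ranged from 1520 to 10317 CPM over those 6 libraries.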

How the data were processed

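The authors deposited raw read counts by gene symbol, separately for each library. Per the submitters' processing notes, the build was hg38 and the tools were STAR 2.7.3a, HTSeq 0.12.4 and DESeq2 1.36.0. The annotation release and the strand setting are not given in the sources used here. Antisense genes overlap 7 members and same-strand genes 5, so their counts are uncertain. The 5 lines that name no gene took 12.8% to 41.8% of each file's counts and were dropped. CPM was computed from total gene counts, and log2 fold changes from TMM-scaled counts.

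Tests used edgeR 4.0.16 (quasi-likelihood F-test, filterByExpr, Benjamini-Hochberg adjustment over all genes, threshold 0.05) in R 4.3.3. ICM 3-4, siHMGB2 and siCTCF were tested in a fit of 8 libraries, siSRRM2 and siBANF1 in a fit of 6, and comparisons across them in a fit of 14. The fit was tested on simulated data. DESeq2 1.42.0, other scalings and filters, other sets of libraries, a replicate block, and leaving out each library were alternatives. Named members were the highest of each class, those with the largest change among the called (up to 4), and up to 4 called pathway genes. H1-3, H1-4, H2BC4, H2BC5, H2BC21, H3C11, H4C3, H4C5, the members of unadjusted p under 0.05 and the list examples other than NPAT and SLBP were picked after their values were seen. Members and lists were chosen with earlier results of these data known. Small RNA genes are 639 symbols by RefSeq type. ASF1B, RN7SL1 and RN7SL2 were at 0 in every library. Fits used limma 3.58.1, and figures and sums Python 3.11.15.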

Additional observations from a re-analysis of the deposited data

Results flagged for a closer look

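In 2 of 6 values checked over the 4 ICM libraries (the summed level and the leading member of each class), 1 library stood far from the other 3. For H1-2 it was ICM 2, whose gap to the next library was 0.905 of the range (457 CPM, with the others at 157 to 185). For H2BC12 it was ICM 1, with a gap of 0.857 of the range (66.0 CPM, with the others at 271 to 305). Both gaps pass Dixon's 95% critical value for 4 libraries, which chance passes in about 1 in 20 groups. The 4 libraries come from both sets and differ in small RNA content.

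For 9 of the named members, the change against WT differed between ICM 1-2 and ICM 3-4 in edgeR's quasi-likelihood test of that difference. It was larger in ICM 1-2 for H1-5 (difference of log2 fold changes 7.48), H2AC21 (3.16), H4C2 (5.68), H4C6 (11.34), H4C9 (7.64) and H4C13 (7.15). It was smaller there for H2AC18 (-4.38), H2AC19 (-4.67) and H4C14 (-3.72). Since both changes share the WT libraries, each difference equals that between ICM 1-2 and ICM 3-4. H1-5, H4C6, H4C9 and H4C13 were named for the size of that same comparison. The others were named for their change against WT in ICM 1-2 or ICM 3-4. All 9 were thus picked on values that enter the difference, so the differences are a description and no independent support. Groups with counts at or near 0 make several of these sizes depend on the fit, and the ratios with their intervals stand with each gene above. Set, small RNA content and any other difference between these libraries cannot be told apart.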

How the results depend on the processing

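For ICM 3-4 against WT, between 23 and 34 members were called over all alternatives, and between 24 and 28 with 1 library left out. The 12 named genes of that comparison kept their direction and their call under each alternative run. Total-count scaling moved the median of all genes there from 0.02 to 0.22 and that of the members from 3.27 to 3.48, and that of all genes for ICM 1-2 against WT from 0.10 to 0.24. For siHMGB2 against WT, 0 members became 1 of 58 with no filter beyond 1 count, beside 854 of 28820 genes. With the compared libraries alone in the fit the count was 2 of 16, beside 1668 of 15338 genes. A replicate block also gave 2 of 16, beside 2443 of 15338 genes. For ICM 1-2 against WT, 44 became 24 at an adjusted p under 0.01, 0 when the compared libraries alone were fitted, and 15 to 43 with 1 library left out. For ICM 1-2 against ICM 3-4, 20 became 5 at an adjusted p under 0.01, 32 with no filter beyond 1 count, 31 with DESeq2, 2 when the compared libraries alone were fitted, and 5 to 32 with 1 library left out. Beside the 32, 31 and 2 members of these settings, 4930 of 33733, 5454 of 19126 and 136 of 16195 genes were called. For the 24 and the 5 at an adjusted p under 0.01 the share of all genes is not given here. Whether members lost calls more often than other genes at that threshold cannot be read from them. The cause of these shifts was not tested. No direction reversed among the 32 single-gene results, and 62 of their 355 values lost the call, all in comparisons across small RNA content.

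Replicate numbers are shared only as numbers. Same-numbered deviations from the group means correlated across 13123 genes at 0.208 for WT and siHMGB2, 0.062 for ICM 1-2 and siSRRM2, 0.856 for ICM 1-2 and siBANF1, 0.821 for ICM 3-4 and siCTCF in number order, and -0.196 for ICM 1-2 and WT. A replicate block called 40 members for ICM 1-2 against WT, and 40 with the numbers crossed, a pairing chosen after seeing the data (1183 and 1071 genes), and 0 for siCTCF, siSRRM2 and siBANF1. A library without a count of a member limits its level only to 0.0515 to 0.134 CPM, by depth.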
